A study of Mus musculus with 6 samples.

Results

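Grb10, Cdkn1c, H19, Phlda2 and Igf2r are imprinted genes transcribed from the maternal chromosome whose products hold back growth of the embryo or placenta. They were described in mouse embryonic stem cells (ESCs) labelled Hnrnpf knockout and in their wild type counterparts. The 5 genes were taken by symbol from a deposited table of 25170 genes, and all 5 had a mean of at least 1 FPKM, the level above which genes were tested. They were chosen by growth role and by measured values of these same libraries, among them lower Grb10 and Cdkn1c in knockout cells and higher Grb10 after LIF removal. Their differences between genotypes and between media are therefore given as a description with no p-value.

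The cells are E14, an established mouse ESC line, grown in serum with leukemia inhibitory factor (LIF), the cytokine that maintains self-renewal, or kept for 4 days without it. There are 2 Hnrnpf knockout libraries after LIF removal and 1 wild type library after LIF removal, then 2 Hnrnpf knockout libraries with LIF and 1 wild type library with LIF. The knockout libraries are called number 1 and number 2 as in the labels, which do not say whether a number marks 1 clone in both media or whether libraries come from separate cultures. A p-value therefore reflects only how far these libraries vary, possibly for technical reasons, and a value from a single wild type library has no replicate error. Values are FPKM, fragment numbers scaled to transcript length and to library size, so levels can be compared between genes. Differences are on the log2(FPKM + 1) scale, which understates the change of low genes.

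Genomic imprinting leaves a gene active on the chromosome inherited from a single parent, through DNA methylation laid down in the germ line. Many paternally expressed genes promote fetal growth and many maternally expressed genes restrain it. IGF2, a growth factor made from the paternal chromosome, stands at the centre of this balance: the protein of Igf2r binds it and carries it to lysosomes, and the adaptor protein GRB10 dampens signalling from the insulin and IGF receptors. CDKN1C is an inhibitor of cyclin-dependent kinases, PHLDA2 is a pleckstrin homology domain protein that limits growth of the placenta, and H19 is a long non-coding RNA that shares its control region with Igf2. Imprints of cultured ESCs are known to vary between lines and passages. The FPKM values do not tell the parental alleles apart.

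Cdkn1c (7, 143458339 to 143461050) and Phlda2 (7, 143501545 to 143503150) lie 40.5 kb apart in the Kcnq1ot1 domain of chromosome 7, and H19 (7, 142575529 to 142578143) lies 880.2 kb before Cdkn1c on the same chromosome. Grb10 spans 11930508 to 12038683 on chromosome 11 and Igf2r 12682406 to 12769664 on chromosome 17. All 5 are on the minus strand (GENCODE M21, GRCm38, the assembly also named mm10). The non-coding Airn overlaps Igf2r on the opposite strand and was at most 0.301 FPKM. Whether the authors counted by strand is not given in the sources used here, so reads of overlapping antisense RNAs cannot be told apart from those of the gene.

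H19 carries the hairpin of a microRNA, miR-675, for which the table lists 0 FPKM in every library. Its mature forms are shown because they are the short products of the gene with the widest range below (RefSeq, GRCm38.p6, minus strand), with the seed, bases 2 to 8, in capitals.
mmu-miR-675-3p (chr7:142577078-142577099): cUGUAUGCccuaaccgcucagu
mmu-miR-675-5p (chr7:142577112-142577133): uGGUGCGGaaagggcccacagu

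The RefSeq promoter table, with windows of 250 bases before to 50 after a start site, holds 3 of the 5 genes. The windows are shown for Grb10 and Phlda2, which were lower in every knockout library than in wild type of the same medium, and for Igf2r, which was not. Capitals mark CG dinucleotides, the sites of DNA methylation.
Grb10, upstream window (chr11:12037371-12037670, minus strand): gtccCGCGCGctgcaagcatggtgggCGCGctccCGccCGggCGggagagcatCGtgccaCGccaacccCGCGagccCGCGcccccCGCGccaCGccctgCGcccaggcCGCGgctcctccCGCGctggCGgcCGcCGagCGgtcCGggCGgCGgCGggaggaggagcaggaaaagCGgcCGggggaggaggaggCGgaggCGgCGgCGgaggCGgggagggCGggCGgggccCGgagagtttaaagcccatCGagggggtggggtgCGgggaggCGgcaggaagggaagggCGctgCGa
Phlda2 (chr7:143502475-143502774, minus strand): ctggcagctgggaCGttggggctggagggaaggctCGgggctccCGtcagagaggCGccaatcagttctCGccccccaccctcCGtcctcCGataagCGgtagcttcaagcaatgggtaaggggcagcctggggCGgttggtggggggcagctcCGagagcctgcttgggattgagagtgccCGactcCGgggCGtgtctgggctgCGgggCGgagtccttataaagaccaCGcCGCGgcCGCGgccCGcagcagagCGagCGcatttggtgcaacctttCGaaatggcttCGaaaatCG
Igf2r (chr17:12769657-12769956, minus strand): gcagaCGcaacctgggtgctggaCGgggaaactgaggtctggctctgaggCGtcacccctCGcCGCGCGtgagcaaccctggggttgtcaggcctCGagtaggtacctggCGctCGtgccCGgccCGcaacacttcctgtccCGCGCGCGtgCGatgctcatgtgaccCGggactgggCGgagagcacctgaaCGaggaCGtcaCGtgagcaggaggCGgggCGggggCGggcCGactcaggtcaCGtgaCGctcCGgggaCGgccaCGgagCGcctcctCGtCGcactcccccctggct
The Grb10 window holds 45 CG dinucleotides, more than 98.1% of the 32851 windows in the table, the Igf2r window 34 (more than 92.3%) and the Phlda2 window 26 (more than 83.1%), where the median window holds 7. A second Grb10 window further downstream holds 9. The letters TATAAA, searched on both strands, are in the Phlda2 window and in 13.6% of all windows. Methylation was not measured in these libraries, and gene-level FPKM do not separate the start sites of Grb10.

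The libraries fitted their labels in outline. Hnrnpf stood at 95.2 and 27.8 FPKM in knockout numbers 1 and 2 after LIF removal, against 335 in wild type, and at 98.7 and 37.1 in knockout cells with LIF, against 342 in wild type. Transcript thus remained in every knockout library, and which part of the gene was deleted is not in the labels. The 10 ESC markers checked were detected in every library, with Pou5f1 between 587 and 1145 FPKM. Their sum was 3920 and 3236 FPKM in knockout numbers 1 and 2 after LIF removal, against 4336 in wild type, and 6848 and 6913 FPKM in knockout cells with LIF, against 9647 in wild type. By this sum every knockout library lay below wild type of its medium, as Grb10, Cdkn1c and Phlda2 did, and the part of this marker difference in theirs was not tested. None of the 10 markers was called between genotypes over both media (limma, adjusted p under 0.05). Their median difference was -0.33, and -0.03 after quantile normalization. FPKM summed to between 456155 and 556318 per library, and steps between low values put the depth of the other libraries at 0.843 to 1.08 times that of the wild type library with LIF. The number of reads behind a value is unknown, so no counting interval is given.

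Grb10 was the most regular of the group. It stood at 66.6 and 47.3 FPKM in knockout numbers 1 and 2 after LIF removal, against 165 in wild type cells. With LIF it stood at 14.3 and 16.1 FPKM in the knockout libraries, against 57.3 in wild type. Every knockout library lay below the wild type library of its medium, at 40.4% and 28.7% of it after LIF removal and at 25.0% and 28.1% with LIF. Across media the genotypes overlapped, since knockout number 1 after LIF removal was above the wild type library with LIF. From high to low, the groups ran from wild type without LIF to wild type with LIF at 57.3 and knockout without LIF at 56.9 ± 13.6 (SD, n = 2), which did not differ beyond the spread, and then to knockout with LIF at 15.2 ± 1.24 (SD, n = 2). Over both media the knockout difference was -1.69 (SE 0.16).

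Grb10 differed in direction from most of its chromosome. The median knockout difference of the 1007 tested genes of chromosome 11 lay between 0.42 and 0.48 in the 4 knockout libraries, where the median of all tested genes lay between -0.04 and -0.01. Of those genes 366 were called higher and 4 lower over both media, where 5.79% and 4.67% of all tested genes were. Set against the chromosome's median over both media, 0.46, Grb10 was lower by a log2 of -2.15. Of the 5 tested genes listed for its domain, Ddc (0.74), Fignl1 (0.45), Sec61g (0.52) and Egfr (0.77) had positive values and Cobl (-0.54) a negative one, and none passed (limma adjusted p from 0.0727 to 0.216). Ddc encodes aromatic L-amino acid decarboxylase and is itself imprinted in the heart, in cis with Grb10.

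**Figure D1:**
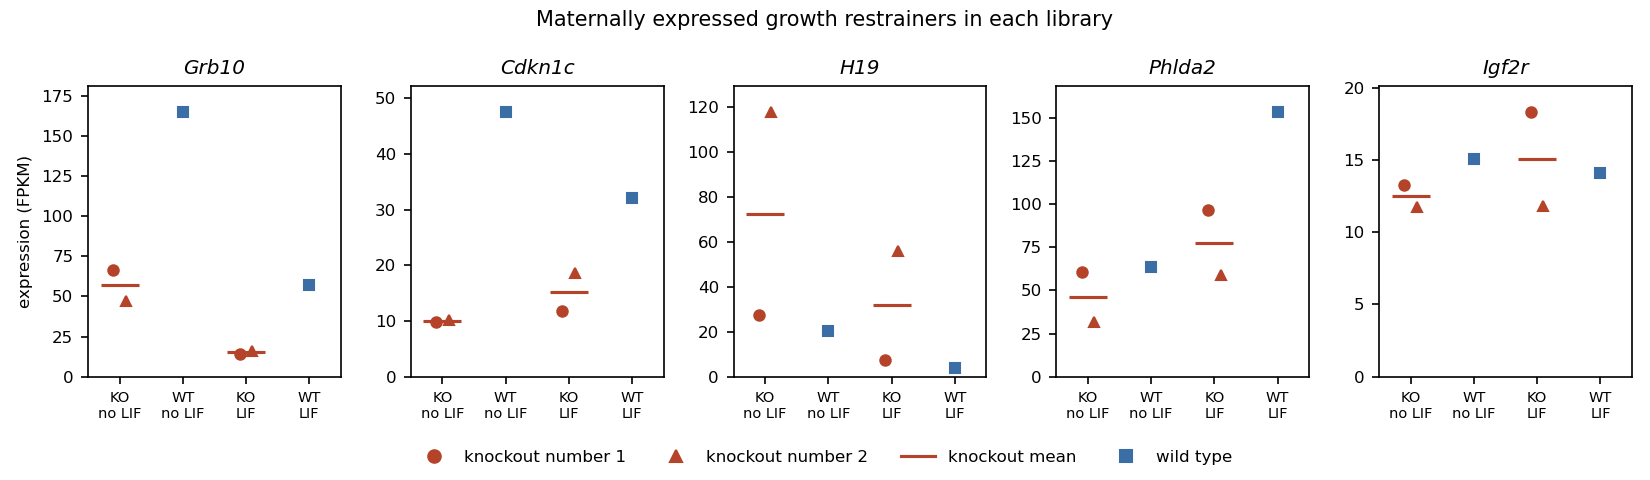
Expression of the 5 genes in FPKM in each of the 6 libraries (vertical axes start at 0 and differ between genes): circles and triangles are knockout numbers 1 and 2, bars the knockout mean and squares the single wild type library. Grb10 and Cdkn1c lie below wild type in each medium, while H19 reaches 118 FPKM in knockout number 2 after LIF removal.

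Cdkn1c, the kinase inhibitor, was also below wild type in all 4 knockout libraries. After LIF removal it stood at 9.89 and 10.2 FPKM in knockout numbers 1 and 2, against 47.5 in wild type. With LIF it stood at 11.8 and 18.6 FPKM in the knockout libraries, against 32.0 in wild type. No knockout library reached either wild type library. Within media, 26.1% of all tested genes lay below wild type in every knockout library, and the share across media was not computed. Cdkn1c was chosen with its lower knockout values known. The knockout libraries held 20.8% and 21.5% of the wild type level after LIF removal, and 36.8% and 58.1% with LIF. The order was wild type without LIF, wild type with LIF, knockout with LIF at 15.2 ± 4.81 (SD, n = 2) and knockout without LIF at 10.04 ± 0.204 (SD, n = 2), and the means of both knockout groups differed by about the SD of the group with LIF. Over both media the knockout difference was -1.60 (SE 0.26). It was -2.13 from the libraries without LIF alone and -1.06 from those with LIF alone.

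Phlda2, the placental growth regulator, had the highest level of the 5 genes in wild type cells with LIF. After LIF removal it stood at 60.8 and 31.9 FPKM in knockout numbers 1 and 2, against 63.8 in wild type. With LIF it stood at 96.7 and 58.7 FPKM in the knockout libraries, against 153 in wild type. All 4 knockout libraries lay below wild type of their medium, but number 1 after LIF removal did so by only a log2 of -0.07, at 95.3% of the wild type value. The groups ran from wild type with LIF to knockout with LIF at 77.7 ± 26.9 (SD, n = 2), wild type without LIF and knockout without LIF at 46.3 ± 20.5 (SD, n = 2), and wild type without LIF lay within 1 SD of both knockout means. Over both media the knockout difference was -0.77 (SE 0.28).

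H19, the non-coding RNA, ran the other way. It stood at 27.4 and 118 FPKM in knockout numbers 1 and 2 after LIF removal, against 20.4 in wild type. With LIF it stood at 7.55 and 56.1 FPKM in the knockout libraries, against 3.97 in wild type. Every knockout library lay above wild type of its medium, by 1.34-fold and 5.76-fold after LIF removal and by 1.90-fold and 14.1-fold with LIF. The larger folds are those of number 2 in both media. The knockout means, 72.5 ± 63.8 without LIF and 31.8 ± 34.3 with LIF (SD, n = 2 each), have an SD as large as the values themselves, so the order of the groups above wild type with LIF is not settled by the spread. Over both media the knockout difference was 1.79 (SE 0.76), and 1.16 without knockout number 2 with LIF.

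Igf2r, the receptor that clears IGF2, was the flattest of the group, within 1.56-fold over all 6 libraries. It stood at 13.3 and 11.7 FPKM in knockout numbers 1 and 2 after LIF removal, against 15.1 in wild type. With LIF it stood at 18.3 and 11.8 FPKM in the knockout libraries, against 14.1 in wild type. Knockout libraries lay on both sides of wild type with LIF, and below wild type without it. The 4 group means ran from 12.5 to 15.1 FPKM. Knockout with LIF, at 15.1 ± 4.56 (SD, n = 2), lay within its SD of wild type of its medium. Knockout without LIF, at 12.5 ± 1.11 (SD, n = 2), lay below wild type of its medium by more than its SD. Over both media the knockout difference was -0.10 (SE 0.18), and its sign turned in 2 of 12 alternative analyses.

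Grb10, Cdkn1c and Phlda2 thus lay below wild type in every knockout library, a pattern that 26.1% of all tested genes show, and H19 lay above it in every one, as do 21.6%. In the limma fit over all 11785 tested genes, 10.5% were past the threshold (Benjamini-Hochberg adjusted p under 0.05), 5.79% higher and 4.67% lower. An unadjusted p under 0.05 was found for 27.7%. This contrast was known when the genes were chosen, so no call is given for the members. The median difference of the 5 was -0.77, beside -0.03 over all tested genes. Without the wild type library after LIF removal neither gene passes, with Grb10 at -1.85 and Cdkn1c at -1.06, and the same holds without the wild type library with LIF, with Grb10 at -1.54 and Cdkn1c at -2.13. Cdkn1c also misses the threshold without the filter on low genes.

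**Figure D2:**
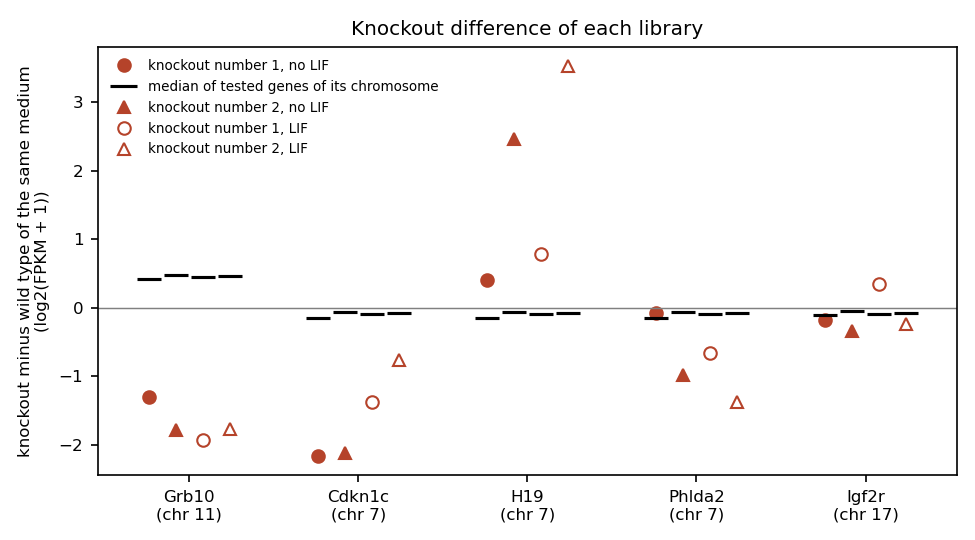
Difference between each knockout library and the wild type library of the same medium on log2(FPKM + 1), for the 5 genes; filled symbols are without LIF, open symbols with LIF, circles number 1 and triangles number 2, and short bars give the median of all tested genes on the same chromosome. Grb10 lies between -1.93 and -1.29 although its chromosome's medians are 0.42 to 0.48, and H19 lies between 0.40 and 3.52.

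The make-up of the group differed most in knockout number 2. Of the summed FPKM of the 5 genes, Grb10 made up 37.4% and 21.6% in knockout numbers 1 and 2 after LIF removal, against 52.9% in wild type, and 9.64% and 9.97% with LIF, against 22.0% in wild type. Phlda2 made up 34.2% and 14.6% in knockout cells after LIF removal, against 20.5% in wild type, and 65.1% and 36.4% with LIF, against 58.8% in wild type. H19 made up 15.4% and 53.8% in knockout numbers 1 and 2 after LIF removal, against 6.56% in wild type, and 5.08% and 34.8% with LIF, against 1.52% in wild type. H19 had the largest share of the 5 in knockout number 2 after LIF removal and in no other library. The sum itself was 178 and 219 FPKM in the knockout libraries after LIF removal, against 311 in wild type, and 149 and 161 with LIF, against 261 in wild type. All 4 knockout sums were below both wild type sums. Lower Grb10 and Cdkn1c in knockout cells were known when the genes were chosen, so nothing is read from this. FPKM of all genes also summed lower in knockout than in wild type of the same medium. These totals were 456155 and 457798 against 486898 after LIF removal, and 503475 and 504906 against 556318 with LIF.

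On LIF removal the genes differed in direction. Grb10 was 4.65-fold and 2.94-fold higher without LIF than with it in knockout numbers 1 and 2, and 2.87-fold higher in wild type cells, with a difference over both genotypes of 1.72 (SE 0.15). H19 was 3.62-fold and 2.10-fold higher in the knockout libraries and 5.15-fold higher in wild type (1.63, SE 0.71). That difference was 0.92 without knockout number 1 with LIF and 2.48 without number 2 with LIF. Phlda2 was at 62.9% and 54.3% of its level with LIF in the knockout libraries and at 41.6% in wild type (-0.92, SE 0.26). These 3 genes kept 1 direction in all 3 pairs of libraries, as do 27.3% of tested genes upward and 33.3% downward. Among all tested genes 21.4% were past the threshold on LIF removal, 8.73% higher and 12.7% lower. The difference of Phlda2 ran from -1.23 to -0.71 over 12 alternatives. Members and results were known together, so no call is given for the members here either.

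Cdkn1c and Igf2r were higher after LIF removal in wild type and lower in both knockout numbers, a pattern of 6.91% of tested genes. Cdkn1c was at 83.9% and 54.8% of its level with LIF in knockout numbers 1 and 2, against 148% in wild type. Igf2r was at 72.7% and 99.0% in the knockout libraries, against 107% in wild type. The difference of the responses, knockout minus wild type, was -1.07 (SE 0.38) for Cdkn1c and -0.31 (SE 0.39) for Igf2r, and neither passed (limma adjusted p = 0.9996 for both). For Grb10 it was 0.31 (SE 0.32), for Phlda2 0.49 (SE 0.58) and for H19 -0.72 (SE 1.64), with the same adjusted p. No gene of the 11785 passed in this limma comparison (0%), and 340 (2.89%) had an unadjusted p under 0.05, with Cdkn1c among them. With 2 residual degrees of freedom and 1 wild type library per medium, the sizes of these differences are poorly fixed.

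**Figure D3:**
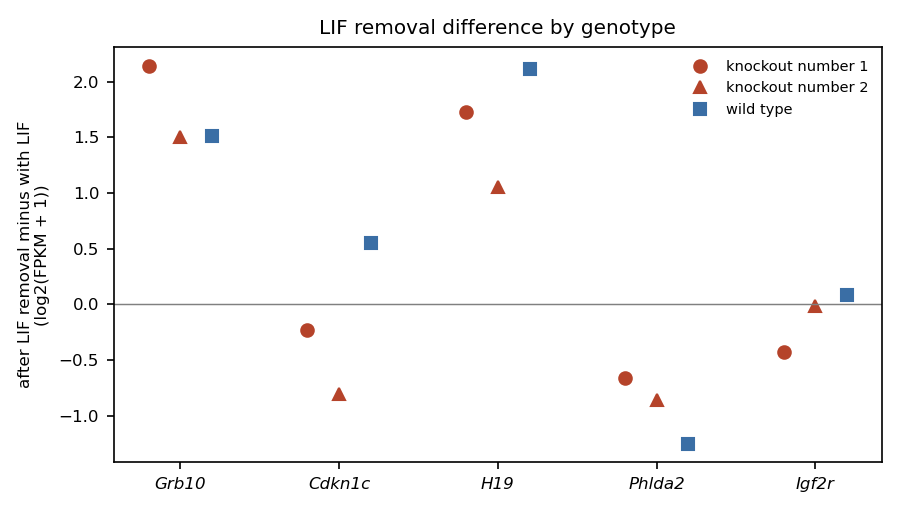
Difference between the library after LIF removal and the library with LIF on log2(FPKM + 1), for knockout number 1 (circles), knockout number 2 (triangles) and wild type (squares). Grb10 and H19 are above 0 and Phlda2 below 0 in all 3, while Cdkn1c is at 0.55 in wild type and at -0.23 and -0.81 in knockout cells.

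The 2 knockout numbers differed in H19 and Phlda2. The fit takes the libraries of a number in both media as replicates of the same cells, which the labels do not say. Its p-values hold only under that assumption. H19 was 4.30-fold higher in number 2 than in number 1 after LIF removal and 7.43-fold higher with LIF, a difference of 2.40 over both media (SE 0.17, limma adjusted p = 0.00223). Phlda2 was at 52.4% of number 1 after LIF removal and at 60.7% with LIF (-0.81, SE 0.12, limma adjusted p = 0.0286). Grb10 (-0.16, adjusted p = 0.705), Cdkn1c (0.33, 0.422) and Igf2r (-0.38, limma adjusted p = 0.295) did not pass. Thus 2 of the 5 members were called, where 1.76% of all tested genes were, 0.993% higher and 0.772% lower. The members were chosen with earlier results of these libraries known, so nothing is read from this count. The fit has 4 libraries and 1 residual degree of freedom: both calls are lost without the filter on low genes (adjusted p = 0.538 for both) or without a term for the medium, and that of Phlda2 also without the intensity trend (0.0925). Hnrnpf itself differed between the numbers (-1.57, SE 0.13, adjusted p = 0.00415), as given above, and its part in these differences was not tested.

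Markers of other cell types were checked beside H19. The trophoblast list summed to 32.8 and 42.8 FPKM in knockout numbers 1 and 2 after LIF removal, against 31.3 in wild type, and to 27.5 and 35.3 with LIF, against 42.4 in wild type, and 3 of its 11 genes, the placental Prl3d1, Prl2c2 and Tpbpa, were listed at 0 in every library. The 10 primitive endoderm markers summed to 7.90 and 12.7 FPKM in knockout cells after LIF removal, against 5.65 in wild type, and to 3.87 and 4.72 with LIF, against 2.17 in wild type, with Afp at 0 and 8 of the 10 under 1 FPKM throughout. Those of mesoderm, 9 genes, summed to 6.84 and 17.8 FPKM in knockout cells after LIF removal, against 5.09 in wild type, and to 3.90 and 3.76 with LIF, against 2.21 in wild type. Fibroblast markers, 10 genes with Fap and Dpt at 0, summed to 6.15 and 8.78 FPKM in knockout cells after LIF removal, against 6.10 in wild type, and to 7.67 and 8.23 with LIF, against 3.47 in wild type. Primitive endoderm, mesoderm and fibroblast sums thus lay above wild type of the same medium in every knockout library, as H19 did. The fibroblast sum of number 1 after LIF removal, 6.15 against 6.10, did so only barely. Under 1 FPKM throughout were 4 of the 9 mesoderm and 8 of the 10 fibroblast markers. Only 2 primitive endoderm, 2 mesoderm and 1 fibroblast markers were tested, and none passed between genotypes. The neuroectoderm list summed to between 63.7 and 93.4 FPKM in knockout libraries and between 89.9 and 102 in wild type. The library with the highest H19, knockout number 2 after LIF removal, also had the highest sums of trophoblast, primitive endoderm, mesoderm and fibroblast markers. Its trophoblast sum, 42.8, was close to the 42.4 of the library with the lowest H19, wild type with LIF. Its neuroectoderm sum, 68.1, was among the lower ones. Knockout number 2 with LIF, next highest in H19, had a mesoderm sum of 3.76, below the 3.90 of number 1. Its primitive endoderm sum, 4.72, lay below the 5.65 of wild type without LIF. The part of such cells in the H19 level was not tested. In bulk RNA, fewer cells of a type and less RNA per cell cannot be told apart.

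Other imprinted genes were set beside the group. Of 16 other maternally expressed genes tested, 3 rose in knockout cells and 1 fell, and 12 did not pass, with a median of -0.05. The 3 that rose are the non-coding RNAs Meg3 (3.05), Rian (3.08) and Mirg (2.77) of the Dlk1-Meg3 cluster, and Gnas, which encodes a G protein alpha subunit and is imprinted in some tissues, fell by 0.55 (limma adjusted p = 0.0150). Of 20 paternally expressed genes, 7 rose and none fell, with a median of 0.65, where the median over all tested genes was -0.03. Among all tested genes 5.79% were called higher and 4.67% lower. With the lowest p among them, Mest rose by 3.32, Zrsr1, on chromosome 11, by 1.20, Igf2 by 1.52 and Dlk1 by 1.06. The counts describe lists set up with earlier results of these libraries known, and no test of the lists was made.

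**Figure D4:**
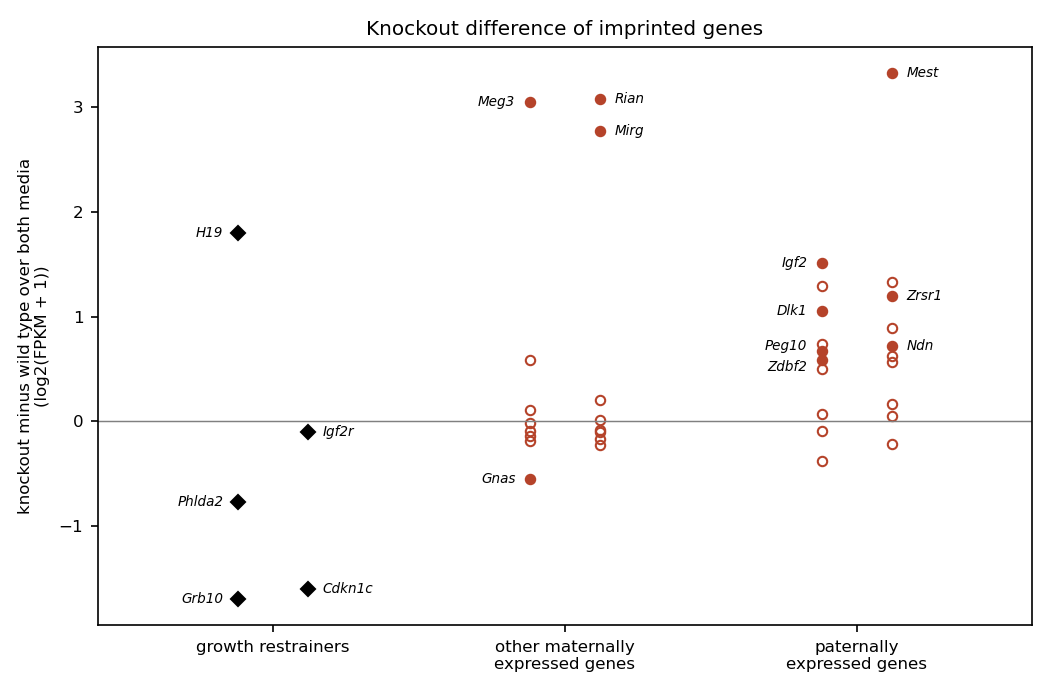
Knockout minus wild type difference over both media on log2(FPKM + 1) for the 5 growth restrainers (diamonds, shown without a call), 16 other maternally expressed genes and 20 paternally expressed genes; filled circles passed the threshold and open circles did not. Grb10 (-1.69) and Cdkn1c (-1.60) are the lowest values shown and Mest (3.32) the highest.

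Igf2, the ligand that Igf2r clears and the partner of H19 in its domain, was at 12.2 and 17.2 FPKM in knockout numbers 1 and 2 after LIF removal, against 3.95 in wild type, and at 2.22 and 5.55 with LIF, against 0.760 in wild type. Igf2 and H19 were thus both above wild type in all 4 knockout libraries, and Igf2, like H19, was higher in number 2 in both media (0.74, limma adjusted p = 0.0855, not past the threshold). Of the other genes listed for this domain only Ctsd, encoding the lysosomal protease cathepsin D, was tested, and it did not pass (-0.05, adjusted p = 0.849). Igf1r, which encodes the receptor through which IGF2 signals and is a reported target of miR-675, was at 7.14 and 7.50 FPKM in knockout cells after LIF removal, against 8.50 in wild type, and at 4.18 and 3.42 with LIF, against 4.82 in wild type. Its knockout difference did not pass (-0.24, adjusted p = 0.348), and it rose on LIF removal (0.77, limma adjusted p = 0.00907).

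None of the 9 tested genes listed for the Kcnq1ot1 domain passed between genotypes. Within 2 Mb of Cdkn1c, 3 of 28 tested genes were called higher and 1 lower, beside 5.79% and 4.67% of all tested genes. Those of the domain were Nap1l4 (-0.09), Tssc4 (-0.10), Cars (-0.07), Nadsyn1 (-0.16), Slc22a18 (-0.17), Cd81 (-0.18), Tnfrsf22 (-0.47), Dhcr7 (0.01) and Ascl2 (0.59), with adjusted p from 0.124 to 0.975. On LIF removal Slc22a18, an organic cation transporter gene imprinted like Phlda2, fell (-1.07, limma adjusted p = 0.0421). Kcnq1ot1, the paternal non-coding RNA that silences the domain in cis, was between 0.0549 and 0.264 FPKM in all libraries, too low to be tested. Around Igf2r none of 8 tested genes passed between genotypes: values ran from -0.49 for Pnldc1 through -0.31 for Sod2, -0.23 for Tcp1, -0.20 for Acat2, -0.18 for Map3k4, -0.11 for Mrpl18 and -0.10 for Wtap to 0.03 for Agpat4. On LIF removal Sod2 (-0.83, limma adjusted p = 0.00483) and Pnldc1 (-0.51, 0.0300) fell.

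Of 32 tested genes of IGF and insulin signalling, 5 rose in knockout cells, 2 fell and 25 did not pass, with a median of -0.09. Among all tested genes 5.79% were called higher and 4.67% lower. Of the 5 that rose, 4 lie on chromosome 11, whose genes were higher as a whole: Rps6kb1 (0.60), encoding the S6 kinase, Igf2bp1 (0.56), an mRNA-binding protein, and the binding proteins Igfbp3 (1.104) and Igfbp4 (1.08). The fifth was Igf2. Igf2bp2 (-0.79, limma adjusted p = 0.0147) and Pik3r1, a regulatory subunit of phosphoinositide 3-kinase (-0.72, limma adjusted p = 0.0408) fell. Igfbp3, Igfbp4 and Pik3r1 are named after their values were seen, to complete the counts. On LIF removal 8 of the 32 rose and 2 fell, where 8.73% of all tested genes were called higher and 12.7% lower. With the lowest p Irs2, an adaptor of both receptors, rose by 1.62, Igfbp3 by 1.92 and Igf2 by 1.67. Irs1 and Igf2bp2 gave 1.15 and -0.70.

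Relatives and partners of the other members were described in the same way, beside 5.79% of all tested genes called higher and 4.67% lower between genotypes. Of 5 tested relatives and partners of GRB10, the ubiquitin ligase gene Nedd4 fell (-0.43, limma adjusted p = 0.0399), a call lost after quantile normalization, and Grb7, the paralog on chromosome 11, did not pass (-0.10, 0.752). Among 21 other CDK inhibitors and G1 regulators 1 rose, 3 fell and 17 did not pass. Cdkn1b, another kinase inhibitor of the CIP/KIP family, fell by 0.80 (limma adjusted p = 0.0202), E2f1 by 0.65 and Cdk4 by 0.47 (0.0494), and cyclin D1, Ccnd1, rose by 0.64; after quantile normalization 2 fell in place of 3. The third CIP/KIP member, Cdkn1a, did not pass (0.38, 0.220). The PHLDA relatives Phlda1 (0.50, 0.242) and Phlda3 (-0.22, 0.528) did not pass between genotypes and rose on LIF removal, by 0.83 and 0.79, where Phlda2 was lower. Of 20 genes of mannose 6-phosphate sorting, the pathway of Igf2r, 2 rose, both on chromosome 11, Gga3 (0.57) and Gaa (0.56), and 3 fell, among them Lamp1 (-0.53) and Ctsl (-0.67), with 2 lower in place of 3 after quantile normalization. M6pr, the other mannose 6-phosphate receptor, did not pass (0.15, limma adjusted p = 0.459).

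Of 25 tested genes that set or keep imprints, 3 rose in knockout cells, 1 fell and 21 did not pass. Among all tested genes 5.79% were called higher and 4.67% lower. Dppa3, which protects maternal imprints after fertilization, rose by 1.096 (limma adjusted p = 0.0111), Zfp57, a zinc finger protein that binds methylated imprinting control regions, by 0.93 (0.0238), and the Polycomb gene Suz12, on chromosome 11, by 0.85 (0.0117). Uhrf1, which brings DNMT1 to replicating DNA, fell by 0.46 (0.0386), a call lost after quantile normalization. Dnmt1 itself (-0.18, 0.419) and Trim28 (-0.13, limma adjusted p = 0.509) did not pass. On LIF removal Zfp57 (-1.11) and Dppa3 (-0.93) fell, with 2 of the 25 higher and 6 lower, beside 8.73% and 12.7% of all tested genes.

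Genes with the profile most like each member over the 6 libraries were found by the root mean square difference of centred log2 values, as a description. For Cdkn1c they were Fgf15 (0.19), Irf3 (0.22) and Rab15 (0.32). Fgf15, a secreted growth factor, was at 5.10 and 3.80 FPKM in knockout cells after LIF removal, against 21.2 in wild type, and at 3.78 and 6.59 with LIF, against 14.7 in wild type. For Phlda2 they were Hhip (0.13), a decoy receptor of hedgehog ligands, Catsperz (0.14) and Csnk1e (0.15), a casein kinase. For Grb10 the nearest, Cd24a (0.53), Grik3 (0.54) and Mapk4 (0.56), were less close, and for H19 they were Acta1 (0.53), Wnt8a (0.63) and Prickle1 (0.64). Acta1, the skeletal muscle actin, was at 6.20 and 27.0 FPKM in knockout numbers 1 and 2 after LIF removal, against 2.42 in wild type, and at 0.352 and 4.08 with LIF, against 0.189 in wild type. No other member was nearest to a member: the closest pair of members, Phlda2 and Igf2r, differed by 0.59.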

How the data were processed

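Expression was measured by RNA-seq of total RNA (150 bp paired-end reads, per the labels' protocols) in 6 libraries. The authors deposited 1 table of FPKM per gene symbol and library. STAR, Cufflinks and build mm10 are named, per the submitters' processing notes, without version, setting or annotation. No read counts were used. FPKM were taken as log2(FPKM + 1) without further scaling, and the 11785 genes averaging 1 FPKM or more were tested with limma 3.58.1 in R 4.3.3 (two-sided, empirical Bayes with a trend on intensity); a call needed an adjusted p (Benjamini-Hochberg, all tested genes) below 0.05. Genotype and medium were added terms (3 residual degrees of freedom), the difference of responses used 4 group means (2), and knockout numbers were compared with medium as a term (1). Only the limma fits were tested on simulated data, with planted differences and a set noise level that was not matched to these libraries. Positions came from GENCODE M21 and RefSeq (11732 of 11785 tested genes matched), and sequences from RefSeq GRCm38.p6. Members, 18 gene lists and tests were chosen with earlier results of these data known. Named genes were the members, Hnrnpf, up to 4 genes of lowest p per list, all tested genes of the members' domains, and for each member with a log2 range of at least 1 the 3 genes of nearest profile; Igf1r, Grb7, Cdkn1a, M6pr, Dnmt1 and Trim28 were named outside this rule, for their roles, after their values were seen, and 1 gene that the rule names is not reported here. Alternatives were a pseudocount of 0.1, no filter, quantile and median ratio scaling, no trend, a replicate block and leaving out each library.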

Additional observations from a re-analysis of the deposited data

Results flagged for a closer look

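Cdkn1c was flagged because wild type and knockout libraries moved in opposite directions on LIF removal. It was lower without LIF in both knockout numbers and higher in wild type, a pattern found in 6.91% of tested genes. The wild type direction rests on 1 library per medium. The difference of the responses was -1.07 (SE 0.38) and did not pass over all genes (limma adjusted p = 0.9996). Igf2r showed the same opposite directions with a difference of -0.31 (SE 0.39, limma adjusted p = 0.9996), and its change in knockout number 2 was a log2 of -0.01.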

How the results depend on the processing

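Genotype differences of Grb10, Cdkn1c, Phlda2 and H19 and LIF removal differences of Grb10, Phlda2 and H19 kept their direction in all 12 alternatives run for each. This could hardly come out otherwise: no filter, no trend and the replicate block leave the difference itself unchanged. All pairs of libraries of these genes already had 1 direction, so leaving 1 library out could hardly turn it. Without either wild type library Cdkn1c gave -0.52 on LIF removal, against -0.16 with all. The genes called between genotypes numbered 1232, against 335 without a filter and 5 to 994 with 1 library left out (560 without knockout number 2 with LIF, 7 without wild type with LIF, 5 without wild type after LIF removal). For LIF removal the count was 2523, against 817 to 1924 with 1 library left out (817 and 821 without the wild type library with LIF or after LIF removal, 1395 without knockout number 1 with LIF, 1665 without knockout number 2 after LIF removal). For the difference of responses it was 0 to 1 (1 without knockout number 1 with LIF), and no fit was possible without a wild type library. There the value of H19, -0.72, ran from -2.09 to 0.65 with 1 knockout library left out: it turned to 0.65 without knockout number 2 with LIF and to 0.32 without knockout number 1 after LIF removal; the cause was not tested. Between knockout numbers the count was 208, against 324 with a pseudocount of 0.1, 430 and 360 after quantile and median ratio scaling, 10 without trend, and 0 without a filter or without the medium term. The replicate block is not a design of the study: only 2 numbers are shared, and the labels do not tie them to clones. Number 2 minus number 1 correlated between the media with an r of 0.366 over 11785 genes, so same-numbered libraries deviated in part alike. Whether they are the same cells was not tested. With the replicate block, 2147 genes were called between genotypes. The block left the genotype differences of H19 and Phlda2 as they were, with an SE of 0.19 in place of 0.76 and of 0.13 in place of 0.28. These smaller errors hold only if a number marks the same cells in both media. Depth is unknown, which limits all statements on low genes.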
